A study of Mus musculus with 6 samples.

Results

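The horizontal cell genes of the mouse retina described here are Lhx1, Onecut1, Onecut2, Prox1, Calb1 and Septin4 (formerly Sept4), chosen by name as transcription factors and markers of that cell type. The platform annotation paired 9 probe sets with 5 of these 6 genes, out of 22626 probe sets that were not controls, and Onecut2 was not analysed here. Lhx1, Onecut1, Calb1 and Septin4 had 2 probe sets each and Prox1 had 1. Total RNA of whole retinae was measured on 6 Affymetrix arrays at postnatal day 7, with 3 arrays of retinoschisin knockout mice (Rs1h-/Y, hemizygous for the deleted X-linked gene) and 3 arrays of wildtype mice. Both groups are labelled C57BL/6. Whether a sample pooled several animals is not labelled, so each p-value reflects the spread between these 6 arrays, which could be technical in part. The comparison asks which retinal transcripts differ in mice lacking retinoschisin, an adhesion protein secreted by photoreceptors and bipolar cells, while the layers of the retina are being completed.

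Horizontal cells are inhibitory interneurons that lie at the outer edge of the inner nuclear layer and send feedback to photoreceptor terminals. In the mouse embryo, Foxn4 and Ptf1a direct progenitors to this fate, Onecut1 and Prox1 are needed for horizontal cells to form, and Lhx1 guides the young neurons to their layer. Calb1, a calcium-binding protein, is the standard marker of the mature cell, and Septin4 encodes a filament-forming GTPase of the cytoskeleton. Most members are also known from other cells: Onecut1 is also expressed in ganglion cells, Calb1 in amacrine and ganglion cells, and Prox1 in amacrine cells, Mueller glia, the lens and lymphatic endothelium.

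The deposited values are linear signals, 1 for each probe set and array, and their trimmed mean ran from 263 to 304 in the knockout arrays and from 171 to 312 in the wildtype arrays. All signals below were scaled to the same trimmed mean. Knockout array 1 correlated least with the rest, at 0.957 to 0.965 over log2 signals, against at least 0.974 among the other 5 arrays. The 18S ribosomal RNA controls averaged 273 in knockout array 1 and 983 in wildtype array 2, and 56.1 to 63.6 in the other 4 arrays. The 3' to 5' signal ratio of the Actb control, which rises where RNA is degraded, was 1.69 to 2.17 in the knockout arrays and 1.44 to 1.64 in the wildtype arrays. The same ratio of the Gapdh control overlapped between the groups, at 0.884 to 1.18 in the knockout arrays and 0.824 to 0.982 in the wildtype arrays. Rod markers gave signal on every array, with a summed scaled signal of 18717 to 23243 over 7 genes in the knockout arrays and 22357 to 24432 in the wildtype arrays. Knockout array 1 held the lowest rod sum and the highest ratio of both controls. The labels were not checked against the targeted gene, which was not analysed here. Detection calls were not used here. Mean scaled signals of 11 genes of other organs, such as the sperm protamine Prm1 and the liver gene Alb, were 1.82 to 85.9. A signal in that range is thus not shown to lie above background. The median of these genes was 18.4, and only Csn3 (means of 84.5 in knockout and 87.3 in wildtype) lay above 62.4.

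No horizontal cell gene passed the test between knockout and wildtype retinae, and the log2 fold changes of the 9 member probe sets lay between -0.42 and 0.31. Of these, 6 had a mean signal above the 40th percentile of all probe sets (62.4) and were tested. None of these 6 passed a Benjamini-Hochberg adjusted p of 0.05 in limma (0 called, 0 at an unadjusted p under 0.05, lowest adjusted p = 0.999), where 0.0147% of all 13575 tested probe sets were called. With median scaling or with array weights, 1 of the 6 reached an unadjusted p under 0.05, and none passed after adjustment. Of the 6, 5 had positive and 1 had a negative log2 fold change, and their median was 0.17, while over all tested probe sets 50.1% were positive and the median was 0.00031. None was at least 1.5-fold apart with groups that did not overlap, which held for 1.61% of all tested probe sets. Log2 fold changes here are knockout minus wildtype on the scale of log2(signal + 19.1), which understates changes of dim probe sets. In RNA of whole retina, fewer horizontal cells and less RNA per cell cannot be told apart.

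**Figure D1:**
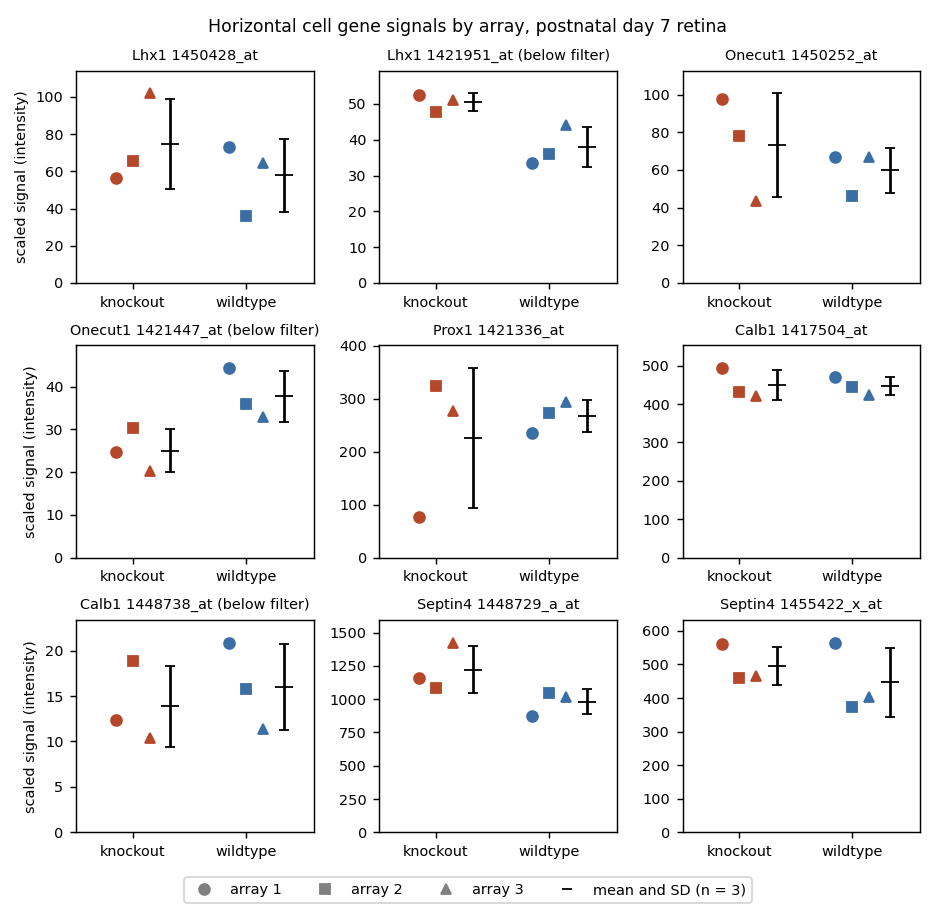
Scaled signal (linear intensity) of each of the 9 horizontal cell probe sets in the 3 knockout and 3 wildtype arrays, with points for single arrays and bars for the mean and SD. Knockout array 1 lies far below the other 5 arrays for Prox1 (76.0). All 3 knockout arrays lie above all wildtype arrays for 1 Septin4 and 1 Lhx1 probe set, and below them for 1 Onecut1 probe set.

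Among the transcription factors, Lhx1, the LIM homeodomain factor that positions horizontal cells, was dim on this array. Its brighter probe set, 1450428_at, had scaled signals of 56.3, 65.6 and 102 in knockout arrays 1 to 3 and 73.1, 35.9 and 64.7 in wildtype arrays 1 to 3. The groups overlapped, with the highest value in knockout array 3 and the lowest in wildtype array 2. The means were 74.6 ± 24.1 in knockout and 57.9 ± 19.5 in wildtype retinae (SD, n = 3 each), and the log2 fold change was 0.29 ± 0.27 (SE; 95% interval -0.33 to 0.90; limma adjusted p = 0.999). That value was 0.09 without knockout array 3 and 0.06 without wildtype array 2. The second Lhx1 probe set, 1421951_at, lay below the filter and was not part of the test. Its scaled signals were 52.5, 47.7 and 51.1 in the knockout arrays and 33.4, 36.1 and 44.2 in the wildtype arrays. Every knockout value was higher than every wildtype value (log2 fold change 0.29), and an exact permutation test, two-sided, gave p = 0.1, the lowest that 3 against 3 can reach. With quantile normalization or with no rescaling the groups of this probe set overlapped. The mean signals of both Lhx1 probe sets (66.25 and 44.2) lie in the range of the genes of other organs. Of those genes, only Csn3 lay above the brighter Lhx1 probe set.

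Onecut1, a cut homeodomain factor needed for horizontal cell genesis, had probe sets that pointed in opposite directions. The brighter, 1450252_at, had scaled signals of 97.9, 78.1 and 43.6 in knockout arrays 1 to 3 and 66.6, 46.1 and 66.9 in wildtype arrays 1 to 3. The knockout arrays held both the highest and the lowest of the 6 values. The means were 73.2 ± 27.5 in knockout and 59.9 ± 11.9 in wildtype retinae (SD, n = 3 each), with a log2 fold change of 0.19 ± 0.27 (SE; 95% interval -0.41 to 0.79; limma adjusted p = 0.999). Without knockout array 1 the value was -0.0050. The dimmer, 1421447_at, was not tested, and had 24.6, 30.3 and 20.2 in the knockout arrays and 44.4, 36.0 and 32.9 in the wildtype arrays. Here every knockout value was lower than every wildtype value (log2 fold change -0.37), and the exact permutation test again gave its lowest p of 0.1. Over the 6 arrays the Onecut1 probe sets correlated at r = 0.03, although the annotation assigns both to the same transcript record. The mean signals of both (66.5 and 31.4) also lie in the range of the genes of other organs, where only Csn3 lay above the brighter one. The dimmer one overlapped between groups when the deposited signals were not rescaled.

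Of the 3 member probe sets below the filter, 2 had groups that did not overlap, where 8.45% of the 9051 probe sets below the filter did so. Separation with higher knockout values, as in Lhx1, was found for 3.08% of them, and with lower knockout values, as in Onecut1, for 5.37%. The brighter Lhx1 probe set had the same sign with overlapping groups, and the brighter Onecut1 probe set had the opposite sign.

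Prox1, the prospero homeodomain factor, had scaled signals of 76.0, 324 and 278 in knockout arrays 1 to 3 and 236, 274 and 294 in wildtype arrays 1 to 3. Knockout array 1 alone was low, and knockout arrays 2 and 3 lay within or above the wildtype values. The means were 226 ± 132 in knockout and 268 ± 29.8 in wildtype retinae (SD, n = 3 each), and the log2 fold change was -0.42 ± 0.41 (SE; 95% interval -1.35 to 0.50; limma adjusted p = 0.999). Without knockout array 1 it was 0.16, and with limma array weights -0.0096. Without knockout array 2 it was -0.77 and without knockout array 3 it was -0.66, so 1 array sets the sign. On the log2 scale Prox1 in knockout array 1 lay 1.42 below the lowest of the other 5 arrays. Of all tested probe sets, 153 (1.13%) lay at least that far below the rest in knockout array 1, and 0 to 4 did so in each of the other arrays. Knockout array 1 also had the highest 3' to 5' ratios of Actb and Gapdh, and the cause of its low Prox1 signal was not tested.

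**Figure D2:**
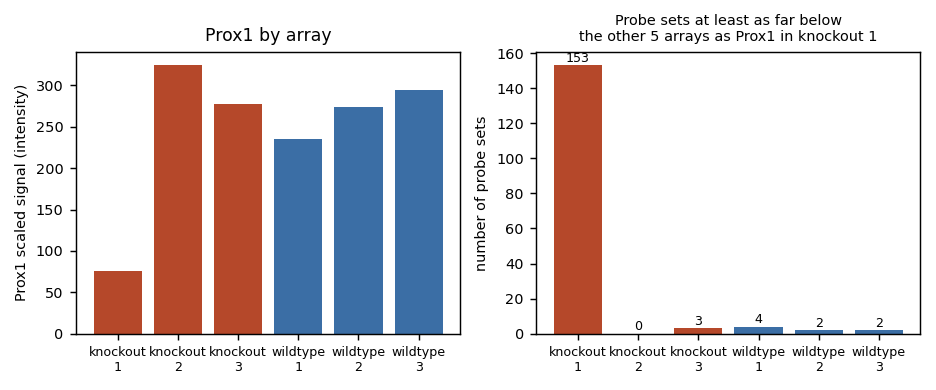
Left, the scaled Prox1 signal (linear intensity) in each array. Right, the number of tested probe sets that lay at least 1.42 on the log2 scale below the other 5 arrays, which was 153 for knockout array 1 and at most 4 for each other array.

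Summed over their genes, the marker lists of other cells that express Prox1 were not at their lowest in knockout array 1. The lens list summed over 13 crystallins and other lens genes was 717 in that array, 364 and 1254 in knockout arrays 2 and 3, and 246, 263 and 2056 in wildtype arrays 1 to 3. The endothelial list, which holds the lymphatic receptor Flt4, summed to 2173 in knockout array 1, 2167 and 2465 in the other knockout arrays and 1741 to 2312 in the wildtype arrays. The Mueller glia list summed to 7107 in knockout array 1, 6217 and 7071 in the other knockout arrays and 6339 to 7102 in the wildtype arrays. The amacrine list summed to 2701 in knockout array 1, which was below the 2977 and 2991 of the other knockout arrays and within the wildtype range of 2625 to 2960. Single genes differed from these sums. In knockout array 1, the endothelial Kdr (666) and Tek (60.5) and the amacrine Gad2 (52.5) were at their lowest of the 6 arrays. There Pdpn (1132), Cdh5 (84.8) and Flt4 (141) of the endothelial list were at their highest. No marker of these 4 lists was listed at 0 on any array, but neither was any gene of other organs, so this does not show presence. The part of these cell types in the Prox1 signal was not tested.

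Calb1, the calcium buffer used to label horizontal cells, had the narrowest 95% interval of the tested members. Probe set 1417504_at had scaled signals of 494, 432 and 420 in knockout arrays 1 to 3 and 470, 445 and 424 in wildtype arrays 1 to 3. The knockout values ran from just under the lowest to just over the highest wildtype value. The means were 449 ± 39.3 in knockout and 446 ± 23.1 in wildtype retinae (SD, n = 3 each), a log2 fold change of 0.0054 ± 0.15 (SE; limma adjusted p = 0.999). The 95% interval of -0.33 to 0.34 bounds the differences that these arrays allow, and a p that misses the threshold does not show equal levels. The other Calb1 probe set, 1448738_at, had 10.4 to 18.8 in the knockout arrays and 11.3 to 20.9 in the wildtype arrays and was not tested. Its values overlapped throughout and lay in the range of genes of other organs.

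Septin4, the septin enriched in horizontal cells, had the smallest unadjusted p of the tested members. Probe set 1448729_a_at had scaled signals of 1162, 1081 and 1423 in knockout arrays 1 to 3 and 876, 1049 and 1019 in wildtype arrays 1 to 3. All 3 knockout arrays lay above all 3 wildtype arrays, by a narrow margin between knockout array 2 and wildtype array 2. The means were 1222 ± 178 in knockout and 981 ± 92.7 in wildtype retinae (SD, n = 3 each). The log2 fold change was 0.31 ± 0.15 (SE; 95% interval -0.04 to 0.65), which did not pass (limma unadjusted p = 0.076, adjusted p = 0.999). It was the only one of the 6 tested member probe sets with groups that did not overlap, where 9.1% of all tested probe sets had such groups and 4.05% had them with higher knockout values. Without rescaling, the groups of this probe set overlapped.

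The second Septin4 probe set, 1455422_x_at, had 559, 460 and 465 in the knockout arrays and 564, 372 and 404 in the wildtype arrays. Wildtype array 1 held the highest value of all, so the groups overlapped. Its log2 fold change was 0.16 ± 0.19 (SE; 95% interval -0.27 to 0.59; limma adjusted p = 0.999), and 0.04 without wildtype array 2. The Septin4 probe sets correlated at r = -0.09 over the 6 arrays. Probe sets with the endings _a_at and _x_at can bind several transcripts, of 1 gene or of related genes, and other septins are expressed in the retina.

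**Figure D3:**
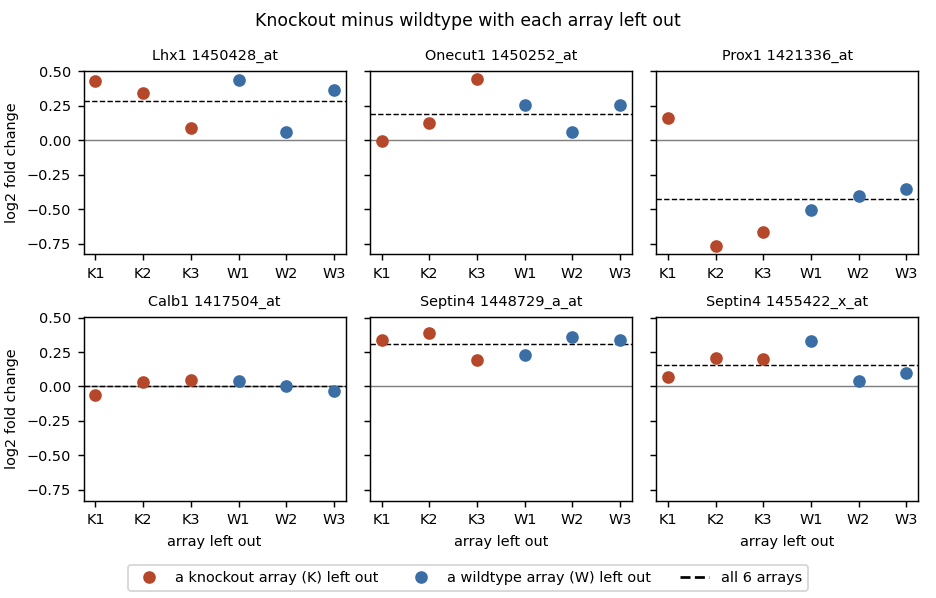
Log2 fold change (knockout minus wildtype) of the 6 tested horizontal cell probe sets with each array left out in turn, with a dashed line for all 6 arrays. Prox1 turns to 0.16 without knockout array 1, while Septin4 1448729_a_at stays between 0.19 and 0.39.

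Another 3 lists of genes were described beside the members, each gene by its brightest probe set. Of 8 regulators of horizontal cell fate, 7 were tested, and 0 passed in either direction (0 at an unadjusted p under 0.05; lowest limma adjusted p = 0.999). Their log2 fold changes were positive in 3 and negative in 4, with a median of -0.10, against 0.00031 over all tested probe sets. Ldb1, the cofactor that binds LIM homeodomain proteins such as Lhx1, had scaled signals of 178, 221 and 125 in the knockout arrays and 207, 279 and 215 in the wildtype arrays, with a log2 fold change of -0.40 ± 0.22 (SE; 95% interval -0.90 to 0.10). The AP-2 factor Tfap2b, shared by horizontal and amacrine cells, had 509, 482 and 371 in the knockout arrays and 387, 331 and 389 in the wildtype arrays (log2 fold change 0.28). Both genes overlapped between groups. Foxn4, the fate regulator that acts first, had 124, 92.0 and 61.8 in the knockout arrays and 144, 114 and 53.2 in the wildtype arrays (log2 fold change -0.10), and was named here for its place in the pathway.

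Pax6, a homeodomain factor of progenitors, amacrine and horizontal cells, had 984, 1352 and 1174 in the knockout arrays and 1131, 1322 and 1394 in the wildtype arrays (log2 fold change -0.14). Further tested Pax6 probe sets had log2 fold changes of -0.85 and -1.47 (-0.31 and -0.92 without knockout array 1), neither past the threshold (limma adjusted p = 0.999). The second of these, 1425960_s_at, had a 95% interval of -2.57 to -0.38 and an unadjusted limma p of 0.014. Its knockout mean of 37.2 lay in the range of the genes of other organs, and its wildtype mean of 114 lay above that range. On this probe set, knockout array 1 stood at 2.66, knockout arrays 2 and 3 at 82.2 and 26.8, and the wildtype arrays at 70.9, 139 and 133. Knockout array 1 was thus the lowest of the 6 for Prox1 and for these Pax6 probe sets alike.

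Of 16 listed genes that horizontal cells use as they mature and connect, such as the GABA-synthesising Gad1, 12 had a probe set and 9 were tested. The connexin gene Gja10 lay below the filter (means of 29.9 in knockout and 30.4 in wildtype) and was not tested. None of the tested genes passed (0 of 9, with 1 at an unadjusted p under 0.05 and a lowest limma adjusted p of 0.999). Of all 13575 tested probe sets, 518 had an unadjusted limma p under 0.05. The list had 5 positive and 4 negative log2 fold changes and a median of 0.25. The neurofilament heavy chain Nefh had scaled signals of 349, 315 and 459 in the knockout arrays and 284, 226 and 220 in the wildtype arrays. All knockout arrays lay above all wildtype arrays, and the log2 fold change was 0.58 ± 0.19 (SE; limma unadjusted p = 0.014, adjusted p = 0.999), or 0.61 without knockout array 1. The light chain Nefl had 2823, 2691 and 2699 in the knockout arrays and 2532, 2259 and 2075 in the wildtype arrays, also without overlap (log2 fold change 0.26). Thus 2 of the 9 tested genes did not overlap, where 9.1% of all tested probe sets did so, 4.05% with higher knockout values. The middle chain Nefm overlapped between groups (-0.02). Neurofilaments are abundant in ganglion cell axons, and the ganglion cell list summed over 9 genes was 5762 to 5963 in the knockout arrays and 5077 to 5600 in the wildtype arrays. Without Nefl and Nefm the remaining 7 ganglion genes summed to 2216 to 2526 in the knockout arrays and 2094 to 2421 in the wildtype arrays, which overlap. Of those 7, Ebf3 did not overlap, with 307, 326 and 399 in the knockout arrays and 266, 242 and 291 in the wildtype arrays. Its log2 fold change was 0.34 (limma adjusted p = 0.999). Thy1 (0.42) and Sncg (-0.39) overlapped between groups and had opposite signs. The part of ganglion cells in the neurofilament values was not tested. Lrrc4, a postsynaptic adhesion protein, had 156, 172 and 182 in the knockout arrays and 127, 121 and 158 in the wildtype arrays (log2 fold change 0.29).

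**Figure D4:**
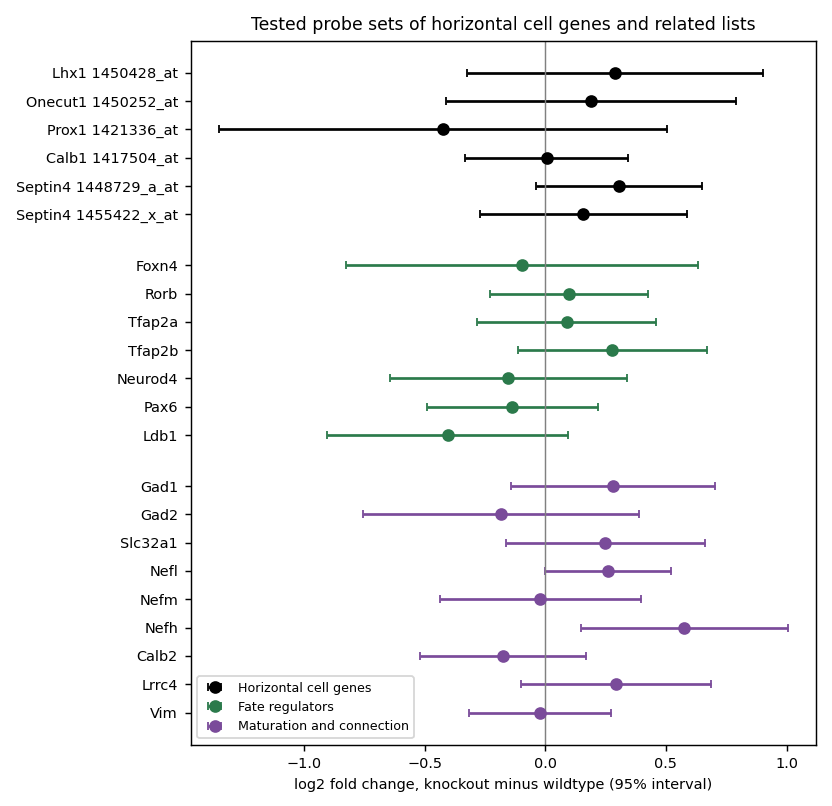
Log2 fold change (knockout minus wildtype) with the 95% interval of the limma fit, for the 6 tested horizontal cell probe sets, 7 fate regulators and 9 maturation and connection genes. The interval of Nefh (0.15 to 1.01) excludes 0 before adjustment, and no gene shown passed after adjustment over all tested probe sets.

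Of 23 relatives of the members (LIM homeodomain, cut, calbindin and septin family genes), 14 were tested and 0 passed (0 at an unadjusted p under 0.05; lowest limma adjusted p = 0.999). Their log2 fold changes were positive in 6 and negative in 8, with a median of -0.02. Lhx4, a LIM homeodomain factor of bipolar cells, had 275, 343 and 283 in the knockout arrays and 268, 281 and 176 in the wildtype arrays (log2 fold change 0.31). Septin9 had 314, 209 and 243 in the knockout arrays and 199, 234 and 196 in the wildtype arrays (0.25). Calretinin, encoded by Calb2, had 1801, 1583 and 1325 in the knockout arrays and 1658, 2015 and 1633 in the wildtype arrays (-0.17). Each of these 3 genes overlapped between groups. Of the 14, only Lhx9, a further LIM homeodomain gene, did not overlap, with 68.6, 65.9 and 67.5 in the knockout arrays and 69.7, 78.4 and 94.0 in the wildtype arrays (log2 fold change -0.20; limma adjusted p = 0.999). It was named for that after its values were seen. Groups that did not overlap were found for 9.1% of all tested probe sets. The Lhx9 means (67.3 in knockout and 80.7 in wildtype) lie in the range of the genes of other organs.

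The array patterns most like those of the members were found by Pearson's r of log2 signals over the 6 arrays, among 12534 named probe sets, as a description of these libraries. Lhx1 (1450428_at) was most like Slc25a5, Hivep1 and Usp38 (r = 0.994 to 0.997), and Onecut1 (1450252_at) was most like Chchd6, Prdx4 and Slc2a8 (0.982 to 0.994). Prox1 was most like Coq5, Tab2 and Cnot6 (0.997 to 0.998), each of which was lowest in knockout array 1. Calb1 was most like Cntfr, Mafg and Atp6v1e1 (0.993 to 0.996), and Septin4 (1448729_a_at) was most like Spon1, Cox18 and Mtmr10 (0.975 to 0.982). An r above 0.9 was reached by 796 probe sets for Prox1, against 52 for Septin4, 84 for Onecut1, 132 for Lhx1 and 231 for Calb1. Taking the highest of 12534 values over 6 arrays yields high r even for unrelated genes. The number to be found by chance was not tested.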

How the data were processed

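Retinal total RNA of 3 knockout and 3 wildtype samples was hybridised by the submitters. The authors deposited linear intensity values from MAS5, a tool that the submitters' processing notes name, and the scaling target is not given in the sources used here. After 64 control probe sets were left out, arrays were scaled to one mean trimmed by 2% at each end. The 20th percentile of signals (19.1) was added before log2. Probe sets with a mean above the 40th percentile were tested (13575) with limma 3.58.1 under R 4.3.3 (lmFit, then eBayes with trend), with Benjamini-Hochberg adjustment over all of them. The code was run on simulated arrays of independent normal values with variances from the same fit. Such arrays hold no outlying array, so the run does not show how the test behaves with one.

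Symbols came from the platform annotation, updated through Entrez identifiers (20351 matched). Of 22626 probe sets, 20380 had 1 symbol, 691 several and 1555 none. Every member probe set is named, with the 3 genes of largest moderated statistic from each of 3 related lists and the 3 genes most like each member. Members and lists were chosen with earlier results of these data known. Alternatives covered scaling, pseudocount, filter, variance model, array weights, pairing and arrays left out. With 3 arrays a group, the number of arrays limits the precision.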

Additional observations from a re-analysis of the deposited data

How the results depend on the processing

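No member probe set passed the threshold in any of the 17 alternatives, and the lowest adjusted p of a member was 0.64, without knockout array 2 (limma). Signs of the 9 member probe sets turned in 12 of 148 cases. Among tested members, Calb1 (1417504_at) was -0.018 with quantile normalization, -0.060 with array weights, and -0.064 when wildtype 2 and knockout 1 were both left out, where Onecut1 (1450252_at) was -0.14, Prox1 0.18 and Septin4 (1455422_x_at) -0.045. With 1 array left out, Calb1 ranged from -0.062 (without knockout 1) to 0.049 and was -0.030 without wildtype 3, Onecut1 from -0.0050 (without knockout 1) to 0.44 (without knockout 3), and Prox1 from -0.77 to 0.16 (without knockout 1). Over the alternatives of every kind, Septin4 (1448729_a_at) kept its sign, from 0.19 to 0.62, and so did Lhx1 (1450428_at), from 0.06 to 0.50. Both highest values were those without rescaling. With 1 array left out, Septin4 ran from 0.19 to 0.39 and Lhx1 from 0.06 to 0.44. The median of all tested probe sets was 0.29 without rescaling, and the positive counts then were 6 of the fate regulators, 9 of the maturation genes and 14 of the relatives, while the relatives had 10 with median scaling.

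All probe sets called numbered 2, but 10 without rescaling, 1 without a filter, 4 without wildtype 2 and knockout 1, and 0 to 4 with 1 array left out (0 without wildtype 3, 4 without wildtype 2, 1 without knockout 2 or 3). The count 1.5-fold apart without overlap (219, of which 34 higher and 185 lower) was 364 without rescaling (350 and 14), 126 with the higher pseudocount, 351 without a filter, 122 with the stricter one, 134 without wildtype 2 and knockout 1, 137 with array weights, and 154 to 767 with 1 array left out. With median scaling the split was 73 higher and 106 lower. Settings with fewer arrays or probe sets differ by construction, and otherwise the cause was not tested. The replicate block fit gave 0 member probe sets (lowest adjusted p = 0.95); arrays with the same number deviated from their group means with r of 0.18, -0.03 and 0.08, so numbers do not show a pairing.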
